A study of Mus musculus with 8 samples.

Results

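The genes described here encode the machinery of regulated exocytosis, the fusion of hormone granules with the plasma membrane on a calcium signal, in mouse pancreatic islets. They were taken from a list of 53 gene symbols covering synaptotagmins, SNAREs, Munc18 and Munc13 proteins, Rim proteins, secretory Rab GTPases and their effectors, complexins and the ATPase that recycles SNAREs. Of the 53 symbols, 52 matched a row among the 27534 genes of the count table, and 50 passed the filter on low counts together with 15442 genes in all. No row carried the name Syt10, which was not analysed here, and Cplx1 (1 to 11 counts per library) and Rph3a (0 to 14 counts) were too low to be tested.

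The libraries come from pancreatic islets of the mouse strain C57BL/6J, kept 72 h in RPMI medium with serum at either 20 mM glucose (high glucose, 4 libraries) or 7.5 mM glucose (low glucose, 4 libraries), and total RNA was sequenced. No genotype other than the strain is labelled for either group, and both groups were islets in culture, so neither gives the level in freshly isolated islets. The title of the series places the cultures in work on the stress sensor IRE1α and Golgi size in compensating beta cells, the insulin-producing cells of the islet. The comparison made here is therefore high against low glucose, and folds are high over low unless a gene is said to be lower.

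Exocytosis of a granule proceeds in steps that the listed genes serve in turn. Rab GTPases mark the granule and recruit effectors that tether it to the membrane, and Rim and Munc13 proteins prime it near calcium channels. Syntaxins and Snap25 in the plasma membrane then zip together with a Vamp protein on the granule, guided by Munc18 proteins and restrained by complexins, while synaptotagmins sense the calcium that triggers fusion. In beta cells this route releases insulin, and the same families serve the alpha and delta cells of the islet and neurons.

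Each library held 19543045 to 24949515 counts, at which 3 counts correspond to 0.114 to 0.161 CPM (counts scaled to library size with edgeR's TMM factors). Every library carried the islet hormones, with Ins2 at 131130 to 201700 CPM, Gcg at 11290 to 28194 CPM and Sst at 1448 to 3986 CPM. Of 8 beta cell markers Iapp rose and Mafa, Slc2a2 and Ucn3 fell, and of 6 alpha cell markers Ttr and Gc rose, Gc by 2.59 on the log2 scale. Markers of acinar cells, the enzyme-secreting cells around the islets, summed to 5180 to 27248 CPM in high glucose against 1854 to 15587 CPM in low glucose, and were higher in high glucose in 4 of 4 same-numbered pairs. Of 23 acinar markers tested, 1 rose (Bhlha15) and none fell, and Amy2a5 was at 0 in 4 libraries and Amy2b in 1. Bhlha15 was at 99.2 to 111 CPM in high glucose and 48.6 to 57.3 CPM in low glucose. Within each group it varied far less than the acinar sum. Schwann and neuronal markers summed to 136 to 163 CPM against 116 to 146 CPM, with 1 of 11 higher (Tubb3) and 1 lower (Elavl4). Duct cell markers summed to 1054 to 1565 CPM against 876 to 1190 CPM, higher in 4 of 4 pairs, and Spp1 among them rose. Fibroblast and stellate markers summed to 162 to 1162 CPM against 130 to 337 CPM, with none of 9 called, and the part of duct, neuronal and fibroblast RNA in the results was not tested. In whole islets, fewer cells of a type and less RNA per cell cannot be told apart. The labels do not say whether the 4 libraries of a group came from separate mice or cultures, so the p-values measure the spread between these libraries, which may be technical.

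After 72 h in high glucose the genes of this machinery moved in both directions. The granule GTPase Rab3d, the granule formation factor Hid1 and the calcium sensor Syt5 each reached about 2.0 times their low glucose level, while Rab37, Rab3b, the Rim protein Rims3 and the complexin Cplx2 fell 1.72-fold to 2.09-fold. The canonical fusion SNAREs Stx1a, Snap25 and Vamp2 and the calcium sensor Syt7 did not pass the test. Of the 50 members tested, 18 (36.0%) passed edgeR's quasi-likelihood test at an adjusted p under 0.05, 10 higher and 8 lower in high glucose. The 10 include Rims1, which passed the filter on low counts only through its high glucose libraries. This fit had no term for the replicate number. Over all 15442 genes tested 25.0% passed, 13.1% higher and 11.9% lower. The counts by class given below stand beside the same 25.0% and rest on 13 tested genes or fewer.

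Among the tested members, the 18 called are also the 18 whose groups do not overlap, against 27.3% of all genes. A change of at least 1.5-fold that passed the test was seen in 11 members (11.1% of all genes) and one of at least 2-fold in 5 (4.77% of all genes). Rims1 is in each of these counts. The median log2 fold change over the members was -0.04, beside -0.01 over all genes, and the median size of the change was 0.25 against 0.24. Of the 32 members not called, 9 differed in 1 direction in all 4 same-numbered pairs. The matching share over all genes was not counted, so this count cannot be read as particular to the members. Scaling by library size alone gave 8 higher and 11 lower members in place of 10 and 8, and over all genes 37.8% in place of 52.5% of the calls were then higher. With the replicate number as a block, 27 members were called, 14 higher and 13 lower, among them all 18, while the share called over all genes went to 37.4%. With the summed acinar markers as a covariate 17 of the 18 were called, all but Cadps (adjusted p = 0.0587), and Rab3a was added.

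**Figure D1:**
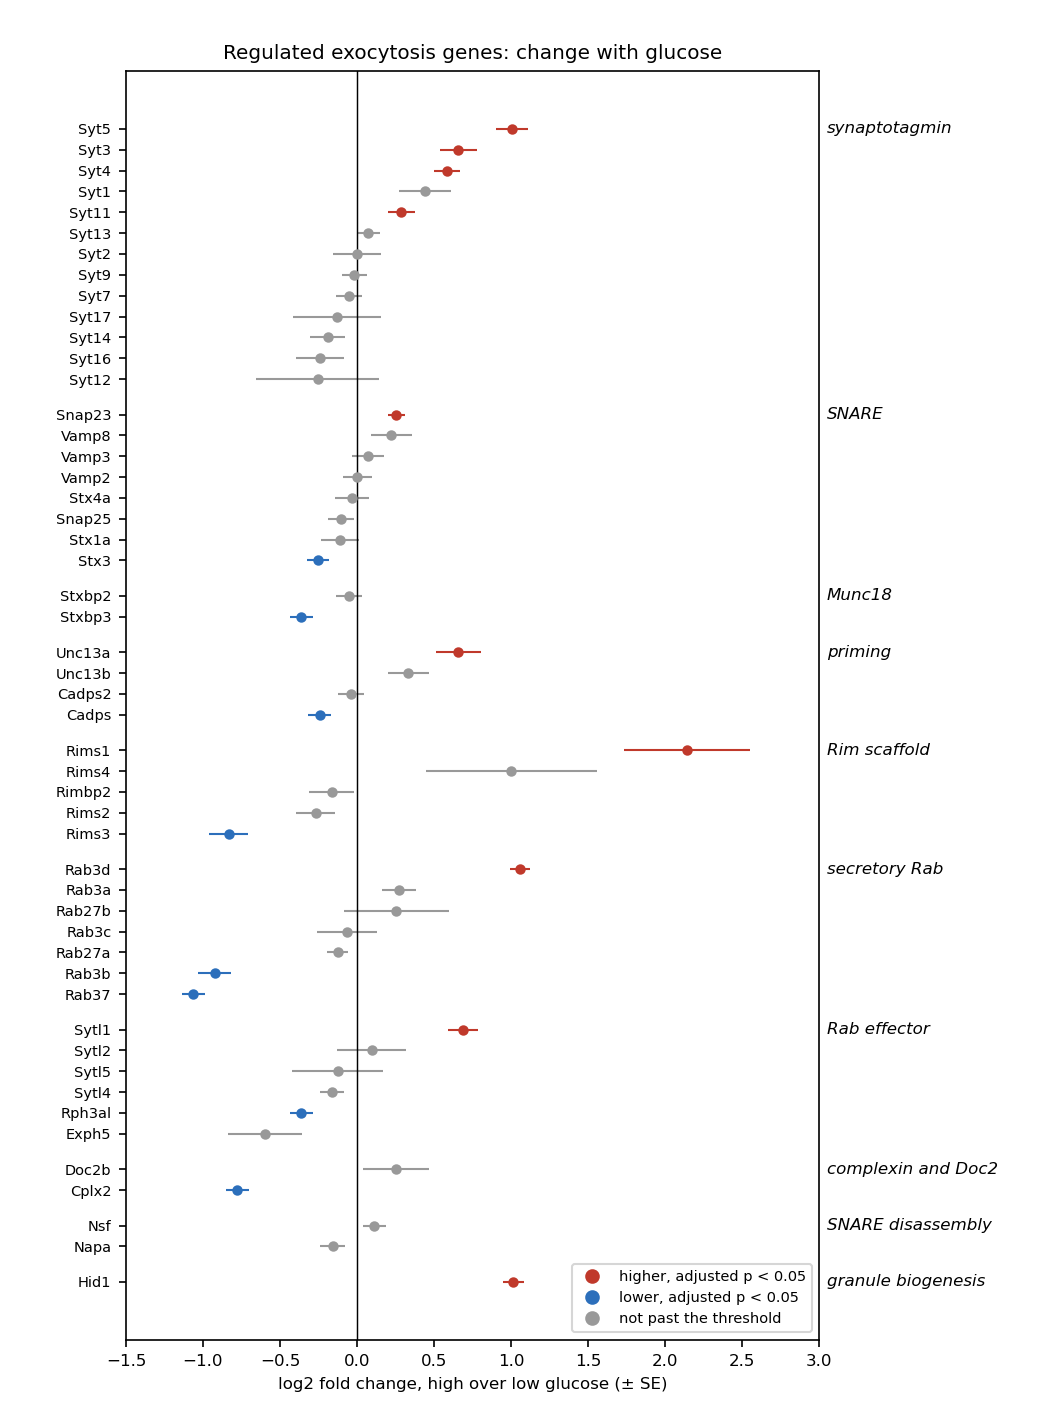
Log2 fold change (high over low glucose) of each tested exocytosis gene with its standard error, ordered within functional classes, with red points for those higher and blue for those lower at an adjusted p under 0.05, and grey for the rest. Rims1, with 3 to 43 counts per library, stands farthest to the right with a wide error. It passed the filter on low counts only through its high glucose libraries. Rab3d, Hid1 and Syt5 lie near 1, and Rab37 lies near -1.

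The secretory Rab GTPases decide which effectors a granule can recruit, and of the 7 tested 1 rose and 2 fell. Rab3d, a Rab3 paralogue carried by large secretory granules of exocrine and endocrine cells (ENSMUSG00000019066, chr9:21907491-21918192, minus strand, GRCm38), was at 312, 283, 298 and 284 CPM in high glucose replicates 1 to 4 and at 141, 139, 138 and 147 CPM in low glucose replicates 1 to 4. Its lowest high glucose library stood far above its highest low glucose library. The log2 fold change was 1.06 ± 0.066 (SE), a 2.08-fold rise with adjusted p = 5.66e-06. Acinar cells also express Rab3d, and with the summed acinar markers as a covariate its log2 fold change was 1.05 (adjusted p = 1.19e-05).

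Rab37, a GTPase found on secretory granules (ENSMUSG00000020732, chr11:115091431-115162236, plus strand), moved the other way by a like amount. It was at 90.0, 97.9, 95.7 and 85.7 CPM in high glucose and at 182, 208, 192 and 189 CPM in low glucose. All 4 high glucose libraries lay below all low glucose libraries, a 2.09-fold fall (log2 fold change -1.06 ± 0.073, adjusted p = 8.45e-06). Rab3b (ENSMUSG00000003411, chr4:108879063-108943324, plus strand), a paralogue also known from pituitary and neuronal secretion, was at 25.3, 30.8, 25.6 and 22.8 CPM in high glucose and at 43.6, 56.0, 50.9 and 47.6 CPM in low glucose. Again the groups did not overlap, and the fall was 1.90-fold (log2 fold change -0.92 ± 0.107, adjusted p = 0.000176).

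Rab3a, the most studied member of the family and abundant in neurons and beta cells, was at 111, 141, 122 and 106 CPM in high glucose and 87.8, 114, 103 and 91.9 CPM in low glucose. Each high glucose library exceeded the low glucose library of the same number, but the groups overlapped. The log2 fold change of 0.27 did not pass the test (adjusted p = 0.0982), and it did with the replicate block (adjusted p = 0.00174). Rab27a, the GTPase that brings granuphilin to insulin granules, was at 251, 261, 264 and 239 CPM in high glucose and 261, 279, 285 and 282 CPM in low glucose. Its groups overlapped narrowly and its log2 fold change was -0.13 (adjusted p = 0.213). The minor paralogues Rab3c (8.59 ± 2.18 against 8.98 ± 1.24 CPM, SD, n = 4) and Rab27b (6.87 ± 3.60 against 5.78 ± 1.70 CPM) did not pass either.

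Because Rab3d rose and Rab3b fell while Rab3a and Rab3c did not pass the test, the sequence upstream of each RefSeq start is shown, 200 bases from 250 to 51 bases before the start, 5′ to 3′ in the direction of the gene, on GRCm38.p6. The windows are Rab3a chr8:70754453-70754652 (plus strand, the first of its 2 listed starts), Rab3b chr4:108878820-108879019 (plus), Rab3c chr13:110280257-110280456 (minus) and Rab3d chr9:21918234-21918433 (minus). The Rab3c window lies inside the gene as placed for the counts (chr13:110054187-110280996), whose 5′ end is farther upstream. Capitals mark matches, on either strand, to GGGCGG (a GC box), TGACG (the core of a cAMP response element) or CACGTG (an E-box), of which the last pair can share letters.
Rab3a: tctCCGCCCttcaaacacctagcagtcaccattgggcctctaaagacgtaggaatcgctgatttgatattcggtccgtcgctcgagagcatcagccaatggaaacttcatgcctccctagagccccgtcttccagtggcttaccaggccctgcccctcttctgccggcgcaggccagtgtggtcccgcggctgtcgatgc
Rab3b: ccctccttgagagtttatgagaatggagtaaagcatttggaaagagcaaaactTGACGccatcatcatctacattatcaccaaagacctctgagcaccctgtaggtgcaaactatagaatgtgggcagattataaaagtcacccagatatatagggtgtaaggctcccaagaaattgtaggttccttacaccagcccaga
Rab3c: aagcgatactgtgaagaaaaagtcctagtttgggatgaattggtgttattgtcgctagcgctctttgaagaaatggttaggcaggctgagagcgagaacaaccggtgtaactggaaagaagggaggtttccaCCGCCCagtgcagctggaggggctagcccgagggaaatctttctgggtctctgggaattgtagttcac
Rab3d: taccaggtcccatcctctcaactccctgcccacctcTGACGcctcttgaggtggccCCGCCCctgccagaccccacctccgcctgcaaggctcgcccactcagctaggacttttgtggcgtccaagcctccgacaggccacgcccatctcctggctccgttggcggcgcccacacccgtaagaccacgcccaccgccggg
The windows of Rab3a, Rab3c and Rab3d hold 1 GC box each, those of Rab3b and Rab3d hold 1 TGACG each, and CACGTG is in none of the 4. Of all 32851 promoter windows of this length, 24.6% hold GGGCGG, 12.7% hold TGACG and 4.34% hold CACGTG. Promoter entries were found for 37 of the 53 members, some with more than 1 start, and of their 43 windows 46.5% hold GGGCGG, 16.3% hold TGACG and 14% hold CACGTG.

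The authors' FPKM (fragments per kilobase, scaled to library size) divide by the length given for each gene. Shares and ratios between genes depend on these lengths. In FPKM the Rab3 family as a whole went from 90.8 ± 6.03 (SD, n = 4) in low glucose to 131 ± 7.06 in high glucose. Rab3d made up 36.4% ± 3.02 of that sum in low glucose and 53.2% ± 3.66 in high glucose, and Rab3b went from 15.1% ± 0.592 to 5.60% ± 0.428. Rab3a went from 47.8% ± 2.51 to 40.7% ± 3.25 of the family. The ratio of Rab3d to Rab3a in FPKM was 1.49, 1.07, 1.30 and 1.42 in high glucose and 0.855, 0.649, 0.709 and 0.848 in low glucose. In FPKM Rab3a thus stood above Rab3d in all 4 low glucose libraries and below it in all 4 high glucose libraries. This order rests on the lengths given, 2226 bases for Rab3a and 4196 for Rab3d. In CPM, which do not use length, Rab3d was above Rab3a in every library of both groups.

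**Figure D2:**
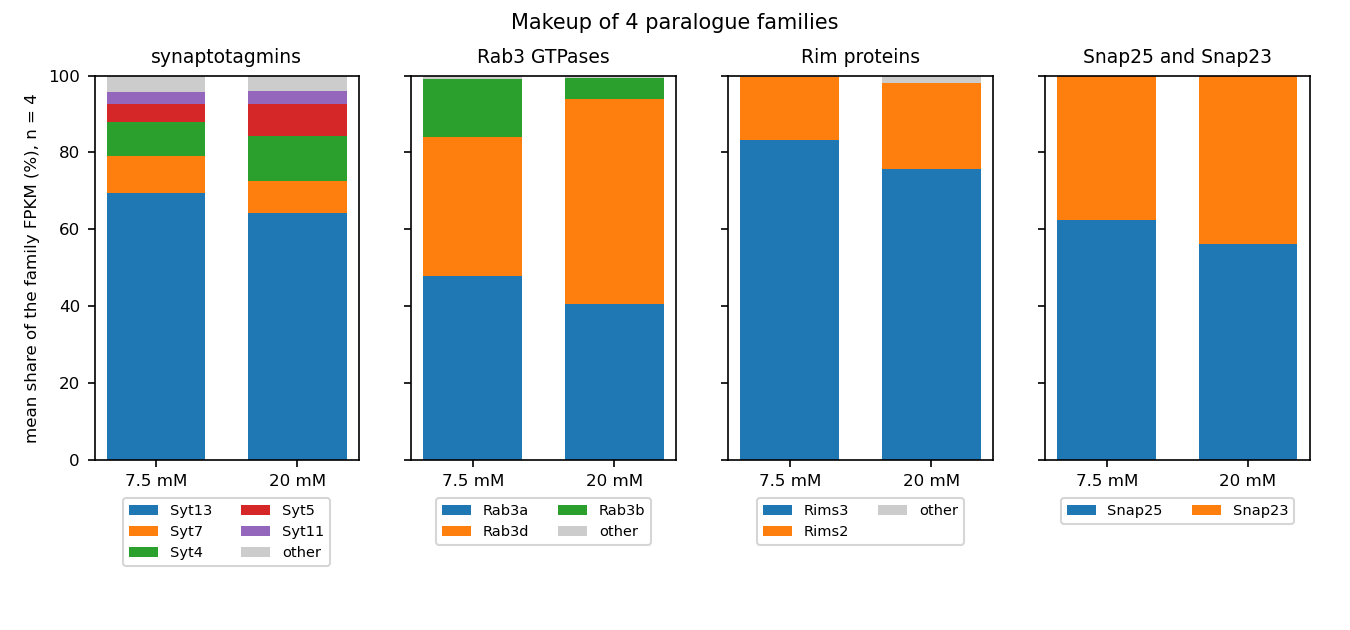
Mean share of each paralogue in the summed FPKM of its family, in percent (n = 4 libraries per bar), at 7.5 and 20 mM glucose, for the synaptotagmins, Rab3 GTPases, Rim proteins and the Snap25 pair, with paralogues under 3% in both groups joined as other. The Rab3d segment takes 36.4% of its bar at 7.5 mM and 53.2% at 20 mM, while Syt13 leads its family in both.

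Of the 6 tested effectors that read these Rabs, 1 rose and 1 fell. Sytl1, a synaptotagmin-like protein that binds Rab27 (ENSMUSG00000028860, chr4:133253090-133263113, minus strand), was at 37.3, 31.5, 35.1 and 35.6 CPM in high glucose and 19.7, 25.5, 21.0 and 20.3 CPM in low glucose. The groups did not overlap, and the rise was 1.61-fold (log2 fold change 0.69 ± 0.096, adjusted p = 0.000545). Rph3al, also called Noc2, a Rab3 and Rab27 effector needed for hormone release, fell 1.29-fold from 132 ± 7.42 to 102 ± 7.56 CPM (adjusted p = 0.00566).

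Sytl4, or granuphilin, which docks insulin granules at the membrane, was the most abundant effector at 76.3 ± 6.39 FPKM in high glucose and 84.2 ± 1.63 FPKM in low glucose. Its log2 fold change of -0.16 did not pass (adjusted p = 0.153, and 0.0321 with the block). Exph5, a Rab27 effector also called Slac2-b, was at 44.1, 31.4, 51.3 and 43.1 CPM in high glucose and 77.6, 33.3, 75.0 and 71.4 CPM in low glucose. Low glucose replicate 2 was the 1 library of its group that lay among the high glucose values. Its log2 fold change of -0.60 ± 0.24 had adjusted p = 0.0968 over all libraries, 0.000864 with the replicate block and 0.00114 without that library.

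The other effectors showed no call. Sytl2 was at 6.10 ± 1.31 against 5.72 ± 1.67 CPM and Sytl5 at 26.3 ± 7.84 against 28.7 ± 10.1 CPM, each with overlapping groups. Rph3a, or rabphilin, was near the limit of counting at 0.144, 0.104, 0.377 and 0 CPM in high glucose and 0.379, 0.750, 0.615 and 0.480 CPM in low glucose. These values did not overlap, but 3 counts come to as much as 0.161 CPM here and the gene was not tested.

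Among the synaptotagmins, the calcium sensors and their calcium-independent relatives, 4 of 13 tested rose and none fell. That is 30.8% called, beside 25.0% of all genes, and the median log2 fold change of the class was -0.0004. Syt5, a calcium-binding synaptotagmin of dense-core granules (ENSMUSG00000004961, chr7:4539765-4547541, minus strand), was at 101, 128, 112 and 106 CPM in high glucose and at 53.9, 65.2, 52.1 and 50.8 CPM in low glucose. The lowest high glucose library was well above the highest low glucose library. The rise was 2.01-fold (log2 fold change 1.01 ± 0.103, adjusted p = 8.29e-05). Syt3, a plasma membrane isoform with high calcium affinity (ENSMUSG00000030731, chr7:44384102-44400187, plus strand), was at 22.9, 21.6, 22.4 and 17.4 CPM in high glucose and 11.4, 14.1, 15.1 and 12.9 CPM in low glucose. Its groups were also apart, by a 1.58-fold rise (log2 fold change 0.66 ± 0.120, adjusted p = 0.00261).

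The other 2 rises were in synaptotagmins that do not depend on calcium in the usual way. Syt4, which is abundant in islets and modulates the calcium sensitivity of granule release, rose from 174 ± 9.21 to 260 ± 25.3 CPM, a 1.499-fold change (adjusted p = 0.000705). Its log2 fold change of 0.58 ± 0.085 came just short of the 1.5-fold bound used to list values per library. Syt11 rose 1.22-fold, from 80.3 ± 7.75 to 98.0 ± 7.23 CPM (adjusted p = 0.0327), a call that 5 of 16 other settings did not make, with adjusted p up to 0.102.

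Syt7, the high-affinity sensor best known for insulin and glucagon release, was at 340, 314, 370 and 329 CPM in high glucose and 362, 308, 379 and 352 CPM in low glucose. The groups overlapped almost fully, with a log2 fold change of -0.05 ± 0.086 (adjusted p = 0.709). In FPKM, Syt5 was at 0.903, 1.25, 0.924 and 0.981 times the level of Syt7 in high glucose and at 0.455, 0.647, 0.420 and 0.441 times in low glucose. The ratio was higher in every high glucose library than in any low glucose library.

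Syt13, an atypical family member without calcium binding, had the highest level of all members at 361 ± 27.6 FPKM in high glucose and 338 ± 9.05 FPKM in low glucose. It did not pass the test (log2 fold change 0.07, adjusted p = 0.528) and made up 69.4% ± 0.185 of the family in low glucose and 64.4% ± 1.33 in high glucose. Syt14 (80.1 ± 8.81 against 91.5 ± 13.2 CPM, adjusted p = 0.267) and Syt1, the sensor of fast neuronal release (6.59 ± 1.32 against 4.86 ± 0.499 CPM, adjusted p = 0.0863), did not pass, and did with the replicate block (adjusted p = 0.02 and 0.0467). Syt14 also passed without low glucose replicate 2 (adjusted p = 0.0381). Syt9, another calcium sensor of beta cell lines, was at 22.7 ± 1.14 against 23.0 ± 1.98 CPM (adjusted p = 0.905). Syt2, Syt12, Syt16 and Syt17, at 1.00 to 14.0 CPM in high glucose, had log2 fold changes between -0.26 and 0.00 with overlapping groups.

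**Figure D3:**
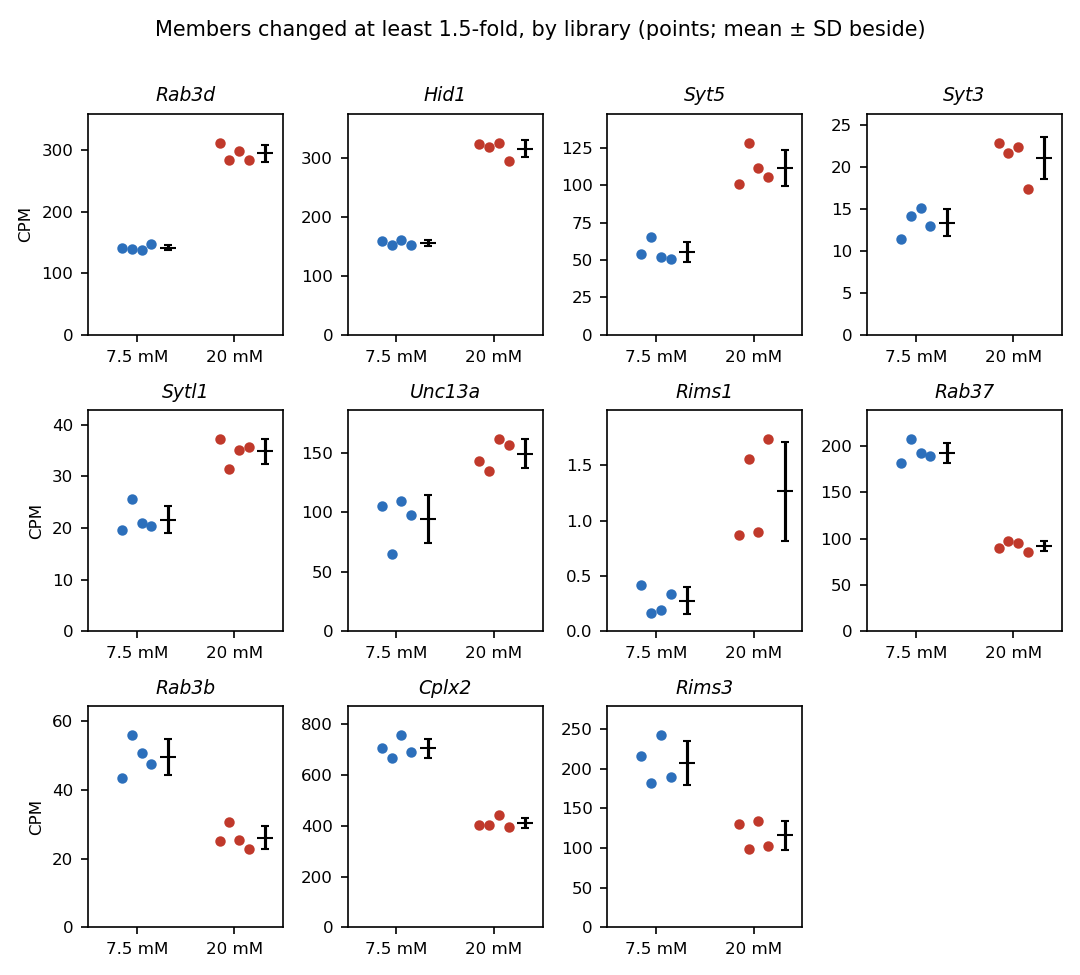
CPM in each library (points; blue 7.5 mM, red 20 mM glucose) of the 11 members that passed the test with at least a 1.5-fold change, with the mean ± SD of 4 libraries beside them and axes from 0. In each panel the 4 points of 1 group lie wholly above the 4 of the other.

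Of the 8 SNAREs themselves 1 rose and 1 fell, neither by 1.5-fold. Snap25, the plasma membrane SNARE cut by botulinum toxin A, was at 92.9, 116, 111 and 105 CPM in high glucose and 120, 111, 120 and 108 CPM in low glucose, with overlapping groups (log2 fold change -0.11 ± 0.082, adjusted p = 0.396). Vamp2, the granule SNARE of insulin release, was at 161, 211, 197 and 184 CPM in high glucose and 188, 192, 201 and 170 CPM in low glucose. The group means were within 1 CPM of each other (188.1 ± 21.3 and 187.8 ± 13.0 CPM, adjusted p = 0.991).

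Stx1a, the syntaxin of first-phase release, was at 8.42, 8.32, 7.45 and 8.01 CPM in high glucose and 8.34, 9.43, 7.39 and 9.60 CPM in low glucose. These groups overlapped too (log2 fold change -0.11 ± 0.123, adjusted p = 0.563). Snap23, the broadly expressed relative of Snap25, rose 1.19-fold from 43.6 ± 0.717 to 52.1 ± 1.30 CPM (adjusted p = 0.00771), a small difference beside a very narrow spread. Within the pair Snap25 made up 62.4% ± 0.975 of the summed FPKM in low glucose and 56.3% ± 1.84 in high glucose. Their ratio was 1.17 to 1.38 in high glucose, below the 1.60 to 1.72 of low glucose.

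Stx3, a syntaxin that serves granule-to-granule fusion, fell 1.19-fold from 52.6 ± 3.31 to 44.2 ± 2.30 CPM (adjusted p = 0.0243), a call that 6 of 16 other settings did not make, with adjusted p up to 0.0825. Stx4a (31.3 ± 3.37 against 32.1 ± 4.44 CPM) and the granule SNAREs Vamp3 (72.7 ± 4.31 against 69.3 ± 10.3 CPM) and Vamp8 (54.1 ± 3.70 against 46.4 ± 10.0 CPM) did not pass. Vamp8, which also serves acinar granules, had adjusted p = 0.251, and 0.0238 with the block.

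The Munc18 proteins hold syntaxins ready for assembly. Stxbp3, or Munc18c, the partner of syntaxin 4, fell 1.28-fold from 49.3 ± 4.00 to 38.4 ± 1.90 CPM (adjusted p = 0.00561), with all high glucose libraries below all low glucose libraries. Stxbp2, or Munc18b, the partner of syntaxin 3, was at 66.9 ± 5.92 against 69.3 ± 5.26 CPM (adjusted p = 0.702).

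**Figure D4:**
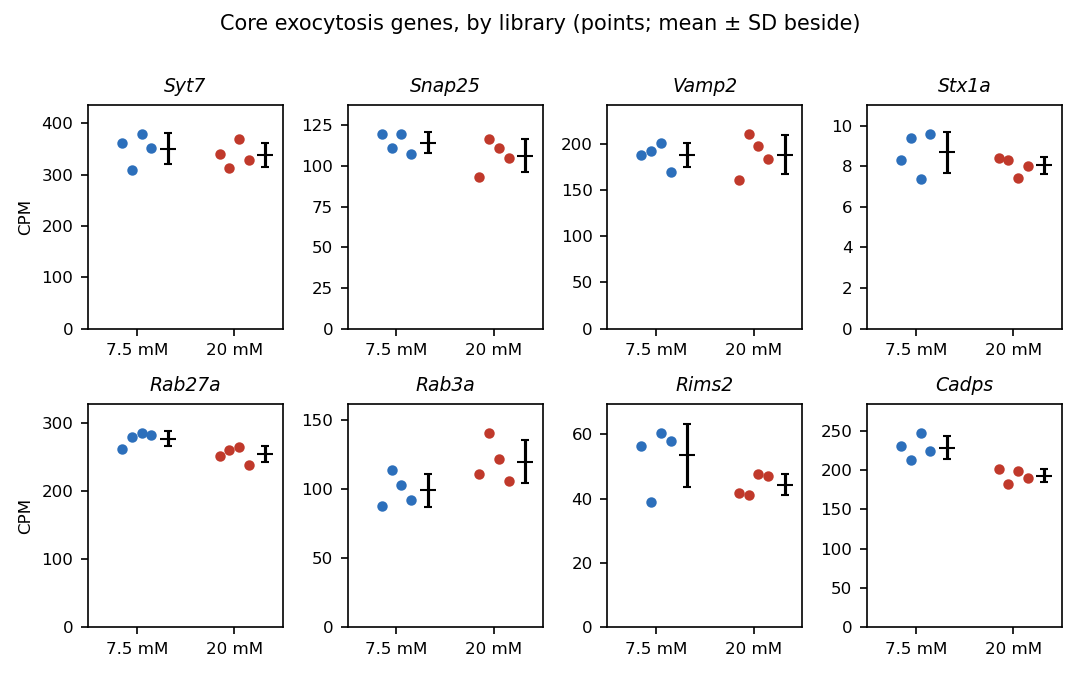
CPM in each library (points; blue 7.5 mM, red 20 mM glucose) of the 8 core members without a 1.5-fold call, Syt7, Snap25, Vamp2, Stx1a, Rab27a, Rab3a, Rims2 and Cadps, with the mean ± SD of 4 libraries beside them and axes from 0. The 2 groups overlap in every panel but that of Cadps.

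Priming factors make docked granules ready to fuse, and of 4 tested 1 rose and 1 fell. Unc13a, or Munc13-1, the principal primer (ENSMUSG00000034799, chr8:71624417-71671757, minus strand), was at 143, 135, 162 and 157 CPM in high glucose and 105, 65.4, 110 and 97.9 CPM in low glucose. The groups did not overlap, and low glucose replicate 2 was the lowest library. The rise was 1.58-fold (log2 fold change 0.66 ± 0.145, adjusted p = 0.00748). Its gene overlaps Colgalt1 on the other strand, which had a log2 fold change of -0.05 (adjusted p = 0.714).

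Unc13b, the Munc13-2 gene, was at 70.3 ± 8.09 against 55.8 ± 9.97 CPM, higher in 4 of 4 pairs, with adjusted p = 0.0995, and 0.0011 with the block. The ratio of Unc13a to Unc13b in FPKM was 3.55 to 4.18 in high glucose, above the 2.85 to 3.24 of low glucose. Its size depends on the lengths given, 12623 bases for Unc13a and 22746 for Unc13b. Cadps, or CAPS1, which primes dense-core granules, was at 201, 183, 198 and 190 CPM in high glucose and 230, 213, 247 and 224 CPM in low glucose. The groups stood apart by a narrow gap, a 1.18-fold fall (log2 fold change -0.24 ± 0.072, adjusted p = 0.0316) that 9 of 16 other settings did not call, with adjusted p up to 0.0905. Its relative Cadps2 was at 17.4 ± 1.13 against 17.9 ± 1.09 CPM (adjusted p = 0.776).

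The long Rim proteins bind Rab3 on the granule and calcium channels in the membrane. Of 5 tested scaffold genes, short and long, 1 rose and 1 fell. Rims3, which encodes a short Rim isoform (ENSMUSG00000032890, chr4:120854816-120896579, plus strand), was at 130, 99.0, 134 and 102 CPM in high glucose and 216, 182, 242 and 189 CPM in low glucose. Every high glucose library was below every low glucose library, and replicates 2 and 4 were the lower pair in both groups. The fall was 1.78-fold (log2 fold change -0.83 ± 0.127, adjusted p = 0.000928).

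Rims1, the main neuronal Rim, was scarce, at 0.866, 1.56, 0.896 and 1.74 CPM in high glucose and 0.417, 0.161, 0.189 and 0.336 CPM in low glucose. The groups did not overlap, although the libraries held only 3 to 43 counts of this gene (ENSMUSG00000041670, chr1:22286251-22805994, minus strand). The fitted rise was 4.42-fold (log2 fold change 2.14 ± 0.409, adjusted p = 0.00341). Rims1 passed the filter on low counts only through its high glucose libraries, which limits this call. Without the filter the adjusted p was 0.00341 as well. Rims2, the long Rim best known from beta cells, was at 41.8, 41.3, 47.5 and 47.0 CPM in high glucose and 56.4, 39.1, 60.5 and 58.0 CPM in low glucose. Low glucose replicate 2 was the lowest of all 8 libraries and made the groups overlap (log2 fold change -0.27 ± 0.126, adjusted p = 0.153). With the block the adjusted p was 0.0228, and without that library 0.00194.

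In FPKM, Rims3 made up 83.1% of the Rim family in low glucose and 75.6% in high glucose, and the family's sum was 30.5 ± 3.99 FPKM in low glucose and 19.1 ± 2.36 FPKM in high glucose. Rims4 was near the limit of counting at 5 to 32 counts per library (adjusted p = 0.227). Rimbp2, a linker between Rim proteins and calcium channels, was at 263 ± 38.9 against 294 ± 53.3 CPM (adjusted p = 0.458).

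Complexins bind assembling SNARE complexes and hold them until calcium arrives. Cplx2 (ENSMUSG00000025867, chr13:54371349-54383917, plus strand) accounted for almost all complexin signal and ranked second among the members by FPKM. It was at 403, 402, 441 and 393 CPM in high glucose and at 704, 664, 756 and 689 CPM in low glucose. The groups were widely apart, a 1.72-fold fall (log2 fold change -0.78 ± 0.075, adjusted p = 5.58e-05). Cplx1 was at 0.0379 to 0.589 CPM in the 8 libraries and was not tested. Doc2b, a calcium sensor that binds Munc13 and syntaxin, was at 3.38 ± 0.875 against 2.84 ± 0.343 CPM (adjusted p = 0.435).

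SNARE complexes are taken apart after fusion by the ATPase Nsf with its adaptor alpha-SNAP, encoded by Napa, and neither passed the test. Napa was at 216 ± 19.6 against 241 ± 12.8 CPM, lower in 4 of 4 pairs (adjusted p = 0.194, and 0.0368 with the block). Nsf was at 109 ± 7.89 against 100.3 ± 6.66 CPM (adjusted p = 0.324). Hid1, which acts at the trans-Golgi network in the formation of dense-core granules (ENSMUSG00000034586, chr11:115347707-115367756, minus strand), was at 323, 318, 326 and 294 CPM in high glucose and at 159, 152, 161 and 151 CPM in low glucose. All high glucose libraries lay far above all low glucose libraries. The rise was 2.02-fold (log2 fold change 1.02 ± 0.067, adjusted p = 6.77e-06), and with the acinar markers as a covariate the log2 fold change was 1.04 (adjusted p = 1.18e-05).

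**Figure D5:**
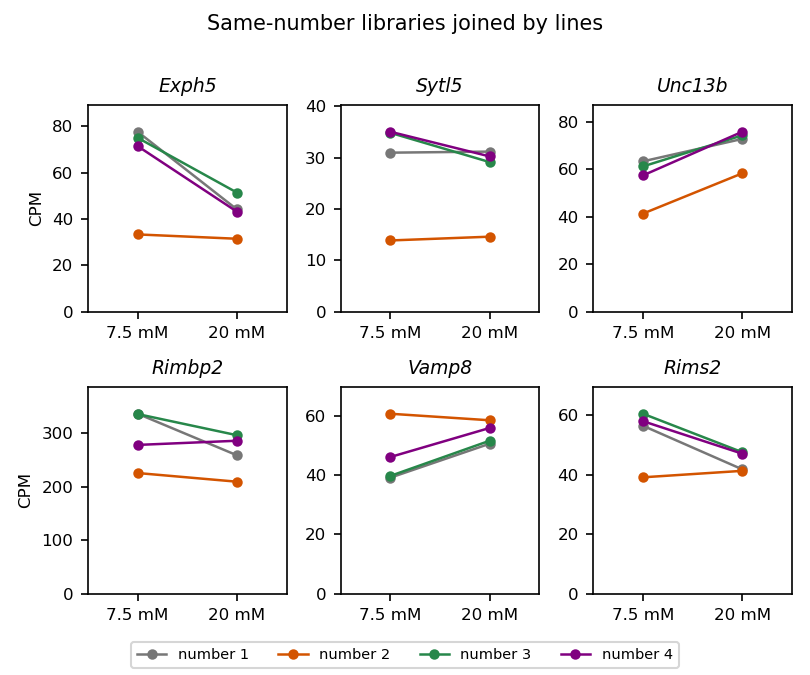
CPM at 7.5 and 20 mM glucose of Exph5, Sytl5, Unc13b, Rimbp2, Vamp8 and Rims2, 1 line per replicate number, axes from 0. The libraries numbered 2 lie lowest at 7.5 mM for all but Vamp8, where they lie highest, and Exph5 and Unc13b move in 1 direction in all 4 pairs although their groups overlap.

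By mean count level, 1 of 11 tested members under 10 CPM, 8 of 20 between 10 and 100 CPM and 9 of 19 above 100 CPM were called. Over all genes the shares in these classes were 15.4%, 29.5% and 38.9%. The 18 calls were also those of the authors' deposited table, which gives 10 members higher and 8 lower at an adjusted p under 0.05. The gene bodies of 9 members overlap another tested gene, and whether counting used strand is not given in the sources used here. Among them Vamp3 lies with Camta1 (log2 fold change -0.56, adjusted p = 0.00959) on the same strand, and Rab37 overlaps Cd300lf, which held 125 counts in all.

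Genes that work beside the members were taken from a separate list of 53 related exocytosis genes and 10 exocyst subunits. Of the 58 tested, 13 passed, 6 higher and 7 lower, beside 25.0% of all genes. With the replicate block 27 did, 13 higher and 14 lower, beside 37.4% of all genes. Syp, the granule membrane protein synaptophysin, rose 1.74-fold from 185 ± 13.1 to 321 ± 16.4 CPM (adjusted p = 5.46e-05). Sv2c, a vesicle glycoprotein, rose 4.41-fold from a low level (0.595 ± 0.333 to 2.60 ± 0.686 CPM, adjusted p = 0.00264). Stx19, a syntaxin-like SNARE, rose 3.12-fold from 0.251 ± 0.174 to 0.812 ± 0.332 CPM (adjusted p = 0.0374). Sv2c and Stx19 are among the 6 higher genes. Both passed the filter on low counts only through their high glucose libraries, which limits these calls.

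Among the falls, Mlph, the melanophilin that links Rab27a to myosin, was 2.09-fold lower (14.5 ± 1.75 against 30.3 ± 8.77 CPM, adjusted p = 0.00232). Baiap3, a Munc13 relative of dense-core granule traffic, fell 1.82-fold from 240 ± 25.2 to 132 ± 5.59 CPM (adjusted p = 7.01e-05). Tspoap1, a Rim-binding protein like Rimbp2, fell 1.58-fold from 13.6 ± 1.93 to 8.61 ± 1.64 CPM (adjusted p = 0.0114). Of the 10 exocyst subunits, which tether vesicles at the membrane, only Exoc1 passed, 1.25-fold lower (adjusted p = 0.02).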

How the data were processed

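Raw read counts per gene and FPKM for 8 mouse islet libraries came as deposited by the authors, in 1 table that also holds their fold changes as log2 values, p-values and a normalised signal (counts divided by 1 size factor per library, not used for results). Alignment with STAR 2.5, counting with HTSeq 2, testing with DESeq2 and builds mm10 and GRCm38 are named per the submitters' processing notes, with no role or annotation release given. Libraries were made with the NEBNext Ultra kit, per the labels' protocols.

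Counts were tested with edgeR 4.0.16 (R 4.3.3; quasi-likelihood, TMM scaling, genes kept by filterByExpr with a minimum count of 10 and total of 15) on all 8 libraries with group as the only term, and p-values were Benjamini-Hochberg adjusted over 15442 genes with a threshold of 0.05. CPM are TMM-scaled, SE is on the log2 scale, and means carry the SD over 4 libraries. On simulated data the fit called 50% of 1.5-fold, 83.7% of 2-fold and 98% of 4-fold changes, with 6 false among 145 calls. Far fewer genes were changed there than were called here, so these shares may differ in the data. A gene that did not pass may thus still have changed. Totals of 19543045 to 24949515 counts set the precision. No pair of libraries agreed within sampling noise (smallest chi-square per gene 12.9). Libraries sharing a replicate number deviated together (r = 0.101, 0.449, 0.404 and 0.475 over genes for numbers 1 to 4), and the labels give no reason for it. The main fit does not use the number, so its calls ignore any pairing. On this evidence from the data same-numbered libraries are described as pairs, and the number enters as a block in an alternative fit. Alternatives were RLE scaling, library size alone, DESeq2 1.42.0, limma-voom 3.58.1, no filter, the replicate block, acinar markers as a covariate and leaving libraries out.

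The members and lists were chosen with earlier results of these data known. Values in every library are given for called members at 1.5-fold or more and for 10 core genes, and for Exph5, Rph3a and the paralogue ratios, which were added after the values were seen. From the related genes, the 3 largest rises and 3 largest falls that passed are named, and Exoc1 was named after its values were seen. Promoter sequences are those of RefSeq on GRCm38.p6.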

Additional observations from a re-analysis of the deposited data

Results flagged for a closer look

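In 6 of 100 groups of 4 libraries (50 members, 2 groups), 1 library stood apart by Dixon's test at its 95% critical value, and chance gives about 1 in 20. Exph5 in low glucose replicate 2 was at 33.3 CPM against 71.4 to 77.6 CPM in the other 3 libraries. Sytl5 in high glucose replicate 2 was at 14.6 CPM against 29.1 to 31.2 CPM, and low glucose replicate 2 was also the lowest of its group at 13.9 CPM. Sytl4 in low glucose replicate 4 was at 425.2 CPM against 447.5 to 450.3 CPM. In high glucose replicate 3, Syt16 was at 3.49 CPM against 4.37 to 4.41 CPM and Syt17 at 0.802 CPM against 1.05 to 1.09 CPM. Rims4 in low glucose replicate 4 was at 1.01 CPM against 0.268 to 0.379 CPM, at 5 to 32 counts per library.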

How the results depend on the processing

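Of the 18 calls, 14 were made in the same direction under all 16 other settings. The exceptions were Cadps, lost without the filter (adjusted p = 0.0665), with acinar markers as a covariate (0.0587) and on leaving out any 1 library other than low glucose replicate 2, then Stx3 (up to 0.0825), Syt11 (up to 0.102, and 0.0538 with library size alone) and Snap23 (0.0592 with library size alone). DESeq2, limma-voom and RLE scaling called the same 18 members. Library size alone also called Rab27a (0.0402), Sytl4 (0.0345) and Napa (0.0231), and the acinar covariate Rab3a (0.0224). Leaving out 1 library gave 15 to 23 called members and medians of -0.0622 to -0.0161. The 23 came without low glucose replicate 2, where Rab3a, Exph5, Rims2, Vamp8 and Syt14 were added (adjusted p = 0.0256, 0.00114, 0.00194, 0.00504 and 0.0381), and the share called over all genes went from 25.0% to 32.4%. Without both libraries numbered 2 there were 23 as well (32.1% of all genes), with Unc13b (0.00288) in place of Syt14. With library size alone the members' median log2 fold change was -0.117, and that of all genes moved by -0.0809. With the replicate block 13 members were lower, and no member's call changed beyond those given above, and 27 related genes were called, 13 higher and 14 lower. Without both libraries numbered 2, 20 related genes were called, 13 of them lower, and leaving out 1 library gave 5 to 14 lower.

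The sign changed in at least 1 setting for 12 members, none called in any. Log2 fold changes of the opposite sign were, for Syt2, 0.0065 (RLE), 0.0057 (DESeq2), 0.00029 (no filter), 0.0010 (acinar covariate) and 0.033 (without both libraries numbered 2). For Vamp2 they were -0.082 (library size alone), -0.0024 (limma-voom), -0.0024 (replicate block) and -0.044 (without both libraries numbered 2). With library size alone Syt13 was at -0.0079 and Vamp3 at -0.0047. With the acinar covariate Rab27b was at -0.083, Sytl2 at -0.036 and Stx4a at 0.00017, and Stx4a at 0.0026 without both libraries numbered 2. Leaving out 1 library gave ranges of -0.12 to 0.12 for Syt2, -0.062 to 0.035 for Syt9, -0.60 to 0.021 for Syt12, -0.27 to 0.057 for Syt17, -0.098 to 0.064 for Stx4a, -0.057 to 0.066 for Vamp2, -0.19 to 0.097 for Rab3c, -0.14 to 0.47 for Rab27b, -0.041 to 0.32 for Sytl2 and -0.35 to 0.071 for Sytl5. The causes were not tested. Depth limits Rims1, Rims4, Syt17, Rph3a and Cplx1 most.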

Other observations

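The libraries with the same replicate number tended to take the same place within their groups. Over all genes those numbered 2 also deviated together (r = 0.449), and the share of all genes at the same extreme in both groups was not counted. Those numbered 2 were the lowest of both groups for 12 of the 50 tested members. These were Syt2, Syt7, Syt12, Syt14, Unc13a, Unc13b, Rims2, Rims3, Rimbp2, Sytl5, Exph5 and Cadps. The libraries numbered 2 were the highest of both groups for 13 members. These were Syt1, Syt4, Syt5, Syt11, Stx4a, Vamp3, Vamp8, Stxbp3, Rab3a, Rab3b, Rab3c, Rab37 and Napa. Those numbered 3 were the highest of both groups for 12 members and the lowest for 4, those numbered 4 for 5 and 2, and those numbered 1 for none and 3.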
